A study of Homo sapiens with 15 samples.

Results

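The squamous lineage transcription factors examined were TP63, SOX2, PITX1, KLF4, KLF5, GRHL2, GRHL3, TFAP2A and TFAP2C, a set of 9 genes listed by name, with no cutoff on their measured values. They were read by 12 of the 42405 probes of an Agilent human gene expression array, on which 19483 genes had a probe named by a RefSeq accession. The samples came from PE/CA-PJ41, an established human oral squamous carcinoma cell line. Samples labelled CYGB+ were stably transfected with a pCMV6-Neo vector carrying human cytoglobin cDNA and came from 1 clone selected in G418. Samples labelled NCE are described in the study as the un-transfected parent line, although the labels repeat the transfection protocol for every sample. By that description transfection, G418 selection and cloning differ between the groups together with cytoglobin and cannot be told apart from it. RNA was taken after 24 h in culture. Each group had 3 biological replicates, with 3 arrays for each NCE replicate and 2 for each CYGB+ replicate, giving 9 and 6 arrays. The question for these genes was whether cells that express cytoglobin, a haem protein of the globin family, differ from control cells in the regulators of squamous identity.

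Squamous epithelium renews from a basal layer whose identity depends on p63, the protein of TP63. SOX2, a pioneer factor often amplified with TP63 in squamous carcinoma, and PITX1, a paired-type homeobox factor, act in the same basal programme. KLF5 is linked to proliferation and KLF4 to terminal differentiation. The Grainyhead-like factors GRHL2 and GRHL3 maintain epithelial junctions and barrier formation, and the AP-2 factors TFAP2A and TFAP2C bind the promoters of many keratin genes.

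PITX1 was higher in the samples labelled CYGB+ by 2.09-fold and GRHL2 was lower by 1.50-fold, and these were the members that passed the test across all probes. Neither passed once slide, which nearly coincides with group, was a term in the fit, where PITX1 was 0.45 higher on the log2 scale (adjusted p = 0.590) and the GRHL2 difference was -0.07 (adjusted p = 0.972). PITX1 read higher on both of its probes. KLF5 was 0.50 lower on the log2 scale, with no overlap between replicates, and did not pass. TP63, KLF4, GRHL3, TFAP2A and TFAP2C did not pass, and SOX2 was not well above background on any array. In such bulk samples, fewer cells with a transcript and less of it per cell cannot be told apart. Values below are log2 normalised signals of the green (Cy3) channel, differences are CYGB+ minus NCE, and adjusted p-values are from limma with Benjamini-Hochberg adjustment over all 19791 probes tested.

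The bases just upstream of PITX1 are shown because PITX1 had the largest difference among the members and KLF factors are members themselves. In GRCh38.p14 PITX1 spans chr5:135027734-135034789, and the 250 bases before the RefSeq transcript start used here lie at chr5:135034229-135034478 on the minus strand, inside that span. Capitals mark matches to CCACCC, the core of the site bound by KLF factors.

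PITX1 upstream: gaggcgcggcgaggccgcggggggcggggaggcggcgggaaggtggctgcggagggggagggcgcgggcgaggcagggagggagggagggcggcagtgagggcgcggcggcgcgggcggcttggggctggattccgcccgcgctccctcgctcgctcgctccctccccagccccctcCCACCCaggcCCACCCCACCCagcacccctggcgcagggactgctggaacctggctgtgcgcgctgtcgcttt

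The window held 3 such matches, starting 73, 63 and 58 bases before the start, and the last pair shares 1 base. CCACCC on either strand was found in 31.3% of 35116 windows of the same length, so its presence is not particular to PITX1. Among the members, 10 windows of 7 genes were read in RefSeq's table. TFAP2C had no window in that table, and GRHL2 was left out of the scan. The KLF letters were present in 4 windows, of PITX1, GRHL3 and TFAP2A. The TFAP2 letters GCCNNNGGC were present in 3 windows, of SOX2, KLF4 and GRHL3, and in 19.8% of all windows. The SOX letters ACAAAG were found upstream of SOX2 itself and in 13.7% of all windows. Neither the GRHL letters AACCNGTT nor the PITX letters TAATCC were found in these 10 windows, and these letters were in 1.49% and 5.62% of all. A match describes letters and not a bound site.

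Several facts of the arrays bear on every direction given here. The CYGB probe (NM_134268) did not separate the groups. It read 11.85, 12.15 and 11.96 in the NCE replicates and 11.38, 12.44 and 11.97 in the CYGB+ replicates, a difference of -0.05 (SE 0.25, 95% interval -0.63 to 0.52, adjusted p = 0.906). It was also not separated in the red channel (adjusted p = 0.487). The files do not give this probe's sequence, so whether it lies in the transfected cDNA is unknown. The study describes the parent line as not expressing cytoglobin. The probe was nevertheless at 11.24 to 12.33 on the NCE arrays. The study also assayed cytoglobin in its clones by qPCR and ELISA, which are not analysed here. Groups are named as labelled, and the arrays give no check of those labels. The labels give Cy3 for every sample, while the study's methods put control RNA in Cy5 and CYGB+ RNA in Cy3. Which RNA gave the green signal of the NCE arrays is therefore uncertain. The arrays lay on 2 slides, and 8 NCE arrays were on the first while 1 NCE array and all 6 CYGB+ arrays were on the second. Slide and group can be told apart only through that 1 NCE array. The fit with slide as a term used single arrays, with biological replicate as a random block at a consensus correlation of 0.193. At that correlation array repeats weigh much like separate samples. Calls that held in that fit still rest on that 1 NCE array to part group from slide. The first array of CYGB+ replicate 1 stood apart, at a root mean square distance of 0.77 log2 from its own group and from its partner array, where the other arrays lay at 0.28 to 0.48. Between 48.9% and 57.3% of probes were well above background on each array.

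Markers of the labelled cell type were present. All 10 squamous markers, among them KRT5, KRT14 and DSG3, were above background on all 15 arrays. Their summed signal was 15.94 to 16.15 in NCE replicates and 15.96 to 16.51 in CYGB+ replicates. Of 5 simple epithelium markers 4 were also above background on all 15 arrays, and KRT20 was on none. Those 4 had a summed signal of 16.28 to 16.54 in NCE and 16.36 to 16.67 in CYGB+, so both epithelial sets were present. KRT19, 1 of the 4, was lower (-0.66, SE 0.159, adjusted p = 0.0366) but did not pass with slide as a term (-0.01, adjusted p = 0.997). The fibroblast markers COL3A1, LUM and PDGFRB, the endothelial marker VWF and the melanocyte markers SOX10 and TYR were above background on no array. Other genes of these lists were present, since 1 of 6 fibroblast, 2 of 5 leukocyte (CD14 and CD68) and 1 of 5 melanocyte markers (PMEL) were above background on all 15 arrays. CD14, CD68 and PMEL had differences of -0.46, 0.22 and -0.27 and did not pass. Of 4 endothelial markers 1, CDH5, was bright enough to be tested. It had means of 6.43 in NCE and 6.48 in CYGB+, and its difference of 0.05 did not pass. Of the 9 mesenchymal markers 8 were tested, with SPARC higher (1.65, SE 0.123, adjusted p = 0.00196) and VIM lower (-0.95, SE 0.215, adjusted p = 0.0312) in CYGB+. With slide as a term SPARC passed (1.32, adjusted p = 0.00631) and VIM did not (-0.81, adjusted p = 0.368). Their summed signal was 12.98 to 13.47 in NCE and 12.81 to 13.00 in CYGB+. Among fibroblast markers COL1A2, a collagen chain, was lower by 1.32 (SE 0.108, adjusted p = 0.00278). COL1A1, the other tested gene of that list, had a difference of 0.10 and did not pass. The list's summed signal over these 2 genes was 8.24 to 8.45 in NCE and 7.43 to 7.65 in CYGB+. The part of these markers in the members' differences was not tested.

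**Figure D1:**
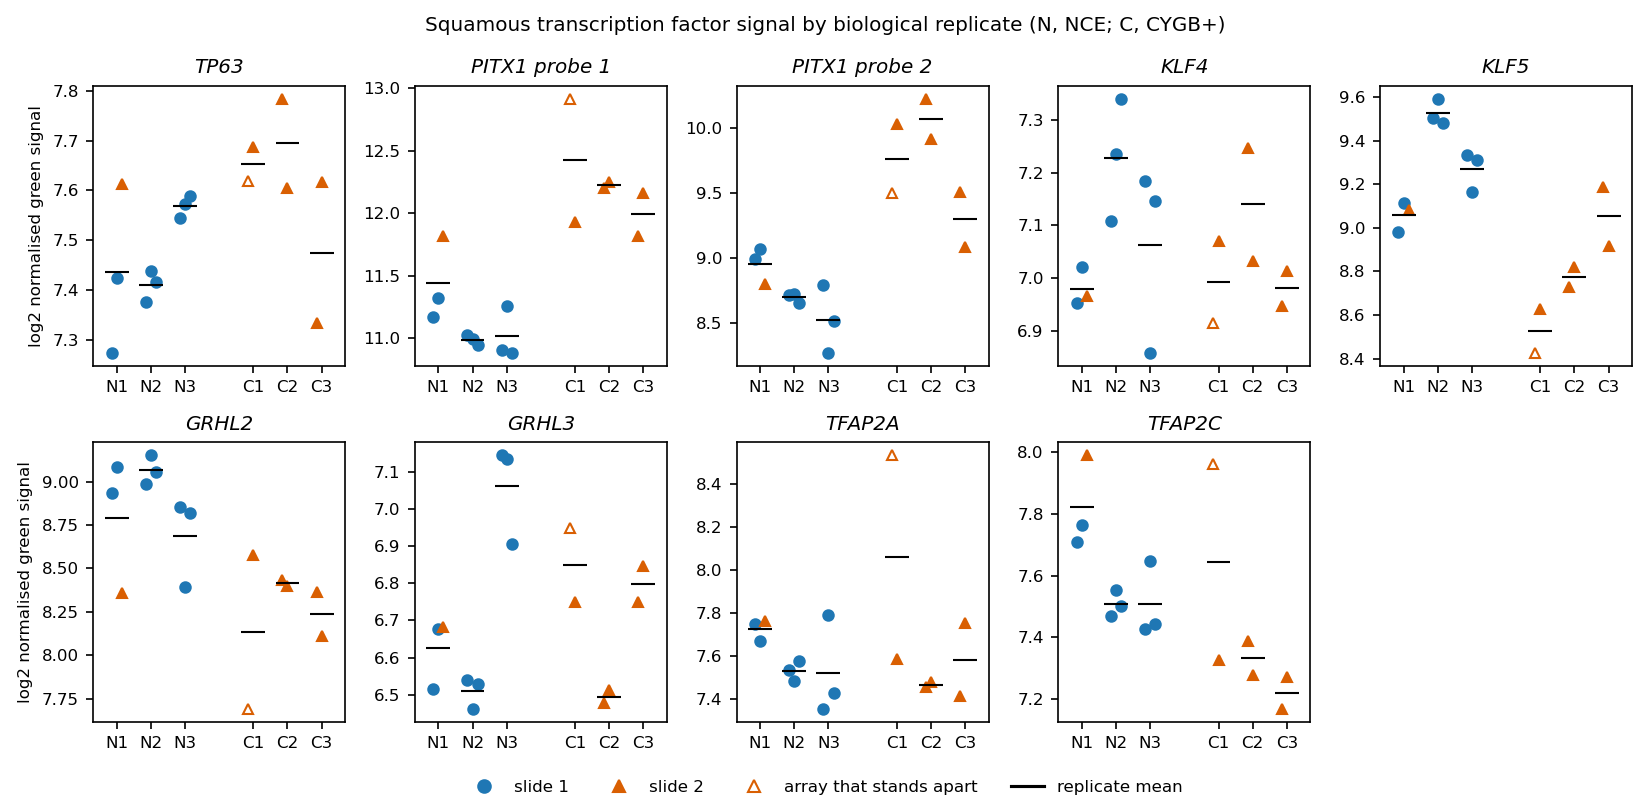
Log2 normalised green signal (y axis) of each tested probe of the squamous factors on every array, by biological replicate of NCE (N1 to N3) and CYGB+ (C1 to C3). Circles are arrays of the first slide, triangles those of the second, the open triangle is the array that stood apart and lines are replicate means; PITX1 lies higher in C1 to C3 on both probes and on probe 1 the single NCE array of the second slide, at 11.82, lies above the other NCE arrays and level with the lowest CYGB+ array.

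TP63 is the master regulator of the basal layer. Its probe (NM_003722) read 7.44, 7.41 and 7.57 in the NCE replicates and 7.65, 7.69 and 7.47 in the CYGB+ replicates. The sequence of this probe is not given, so which TP63 transcripts it reads is unknown. The groups overlapped, since the third CYGB+ replicate lay below the third NCE replicate. The difference was 0.14 (SE 0.108, 95% interval -0.11 to 0.39, adjusted p = 0.442), so an increase of up to 0.39 is not excluded by these replicates.

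SOX2 (NM_003106) was not well above background on any of the 15 arrays. Its array values ran from 5.97 to 6.14 in NCE, with a median of 6.06, and from 5.93 to 6.14 in CYGB+, with a median of 5.99. These values carry no level, and no fold change is given.

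PITX1 (NM_002653) was the member with the largest difference. On its brighter probe the NCE replicates read 11.44, 10.99 and 11.02 and the CYGB+ replicates 12.42, 12.23 and 11.99. Every CYGB+ replicate was above every NCE replicate, as were those of 18% of all probes tested. The difference was 1.06 (SE 0.165, 95% interval 0.68 to 1.45, adjusted p = 0.00998), a 2.09-fold higher signal. Of the tested genes 1.53% had a larger absolute difference.

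The dimmer PITX1 probe read 8.95, 8.70 and 8.52 in NCE and 9.76, 10.07 and 9.30 in CYGB+. Again no replicate of one group reached the other. The difference was 0.99 (SE 0.206, 95% interval 0.50 to 1.47, adjusted p = 0.0252). Both probes stayed past the threshold without the array that stood apart, at 0.90 (adjusted p = 0.00564) and 1.07 (adjusted p = 0.0120). Without NCE replicate 2 the brighter probe gave 0.98 (adjusted p = 0.0530) and without NCE replicate 3 it gave 1.00 (adjusted p = 0.0519), both past the threshold no longer. The dimmer probe lost its call without NCE replicate 2 (adjusted p = 0.0980), NCE replicate 3 (adjusted p = 0.0978) or CYGB+ replicate 2 (adjusted p = 0.0502).

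NCE replicate 1 was the only replicate with arrays on both slides. Its brighter PITX1 probe read 11.82 on the second slide against 11.17 and 11.33 on the first, which is 0.57 higher than their mean. The dimmer probe read 8.80 on the second slide against 8.99 and 9.07, which is 0.23 lower. The 2 probes of the gene thus differed in opposite directions between slides, and with 1 array on the second slide a slide difference cannot be told apart from the spread between arrays. The slide term itself did not pass for the brighter probe (0.69, adjusted p = 0.554). It passed for 1 of 19429 fitted probes, so it cannot decide whether slide matters for PITX1. With slide as a term in an array-level limma fit, the group difference was 0.45 for the brighter probe (SE 0.297, adjusted p = 0.590) and 1.01 for the dimmer probe (adjusted p = 0.118). On the second slide alone, with 1 NCE array, the differences were 0.39 (SE 0.233, adjusted p = 0.645) and 0.91 (SE 0.314, adjusted p = 0.387). On the brighter probe that NCE array, at 11.82, lay level with the lowest CYGB+ array, also at 11.82. On the dimmer probe all 6 CYGB+ arrays, from 9.08 to 10.22, lay above it.

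KLF5, linked to proliferation of basal cells, read 9.06, 9.53 and 9.27 in NCE and 8.53, 8.77 and 9.05 in CYGB+ (NM_001730). The highest CYGB+ replicate lay just under the lowest NCE replicate. The difference was -0.50 (SE 0.172, 95% interval -0.90 to -0.10, adjusted p = 0.101) and did not pass. With the replicate number as a block it did pass, at the same difference of -0.50 with an adjusted p of 0.0495. Replicates did not overlap in the lower direction for 17% of all probes tested, so the separation of KLF5 is common in this comparison. Its NCE replicate 1 differed by 0.03 between slides.

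KLF4, an inducer of terminal differentiation, read 6.98, 7.23 and 7.06 in NCE and 6.99, 7.14 and 6.98 in CYGB+ (NM_004235). All CYGB+ replicates lay within the range of the NCE replicates. The difference was -0.05 (SE 0.110, 95% interval -0.31 to 0.20, adjusted p = 0.787).

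GRHL2, a guardian of epithelial junctions, read 8.79, 9.06 and 8.69 in NCE and 8.13, 8.42 and 8.24 in CYGB+ on its brighter probe (NM_024915). All CYGB+ replicates were below all NCE replicates. The difference was -0.59 (SE 0.135, 95% interval -0.90 to -0.27, adjusted p = 0.0321), a 1.50-fold lower signal. Without the array that stood apart, the lowest of the 15 at 7.69, the difference was -0.44 (adjusted p = 0.0494). The call was lost without NCE replicate 1, 2 or 3 (adjusted p = 0.0744, 0.121 and 0.0712) and without CYGB+ replicate 1 or 3 (adjusted p = 0.0572 and 0.0775), and held without CYGB+ replicate 2 (adjusted p = 0.0423).

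NCE replicate 1 read 8.36 on the second slide against 8.94 and 9.08 on the first, which is 0.65 lower than their mean. An NCE array of the first slide, of replicate 3, was about as low at 8.39. That array lay furthest of the NCE arrays from its own group, at 0.48. The slide term was -0.58 and did not pass (adjusted p = 0.640). With 1 NCE array on the second slide, the slide term passed for 1 of 19429 fitted probes, so it cannot decide whether slide matters here. On the second slide the 1 NCE array lay inside the CYGB+ range of 7.69 to 8.58. The group difference was -0.07 with slide as a term (SE 0.287, adjusted p = 0.972) and -0.10 on the second slide alone (SE 0.209, adjusted p = 0.928). Whether slide or label accounts for the lower GRHL2 cannot be told apart. The dimmer GRHL2 probe was well above background on 6 of 9 NCE and 5 of 6 CYGB+ arrays and was not tested. It read 6.43, 6.29 and 6.38 in NCE and 6.25, 6.33 and 6.32 in CYGB+, which overlap.

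GRHL3, which acts in barrier formation of the upper layers, read 6.63, 6.51 and 7.06 in NCE and 6.85, 6.50 and 6.80 in CYGB+ (NM_198173). The groups overlapped, with the third NCE replicate the highest. The difference was -0.02 (SE 0.171, 95% interval -0.42 to 0.38, adjusted p = 0.958). A second GRHL3 probe, for NM_198174, was above background on no array.

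TFAP2A read 7.73, 7.53 and 7.52 in NCE and 8.06, 7.47 and 7.58 in CYGB+ (NM_001032280). The high first CYGB+ replicate came from the array that stood apart, which read 8.54. The difference was 0.11 (SE 0.166, 95% interval -0.28 to 0.50, adjusted p = 0.704) and became -0.05 without that array.

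TFAP2C read 7.82, 7.51 and 7.51 in NCE and 7.64, 7.33 and 7.22 in CYGB+ (NM_003222). The groups overlapped through the first CYGB+ replicate, whose array that stood apart read 7.96 and whose other array put it at 7.33. The difference was -0.21 (SE 0.149, 95% interval -0.56 to 0.13, adjusted p = 0.382). It was -0.32 (adjusted p = 0.0766) without that array and -0.54 (SE 0.223, adjusted p = 0.255) with slide as a term.

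**Figure D2:**
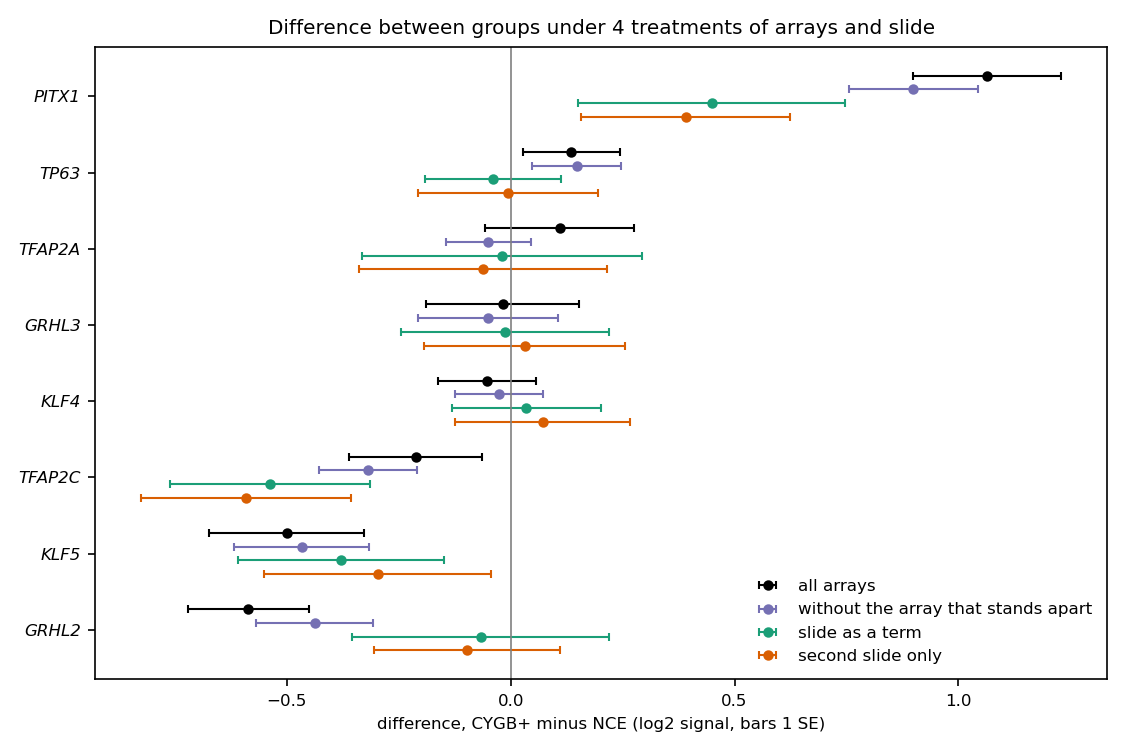
Difference in log2 signal, CYGB+ minus NCE (x axis), for the brightest probe of each of the 8 tested factors, with bars of 1 SE. Black points use all arrays, purple leave out the array that stood apart, green add slide as a term and orange use the second slide only; PITX1 goes from 1.06 to 0.45 with the slide term and GRHL2 from -0.59 to -0.07, while TFAP2C goes from -0.21 to -0.54.

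Over the members, 1 of the 8 tested genes was higher and 1 was lower. Of all 12132 tested genes, each by its brightest probe, 6.76% were higher and 6.97% were lower, and of all probes 6.09% and 5.91%. With 8 genes tested, a count of 1 in each direction is near that background. The median difference of the 8 was -0.04.

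The red (Cy5) channel held signal on every array. The labels do not name its RNA, while the study's methods put control RNA in Cy5 and CYGB+ RNA in Cy3. Under the methods' description, red values of both groups would come from control RNA and would not compare CYGB+ with NCE. Taken by the array's label, the brighter PITX1 probe read 13.20, 12.86 and 13.03 in NCE and 14.04, 13.83 and 13.76 in CYGB+ in red. The difference was 0.85 (SE 0.139, adjusted p = 0.0427) in a channel where 0.956% of probes were called higher and 0.729% lower. For the dimmer PITX1 probe it was 0.38 (SE 0.168, adjusted p = 0.237), for KLF5 -0.46 (SE 0.309, adjusted p = 0.405) and for GRHL2 -0.20 (SE 0.201, adjusted p = 0.580). None of these 3 passed. Both channels were read on the same arrays, so the red values are not separate replicates and carry the same slides.

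**Figure D3:**
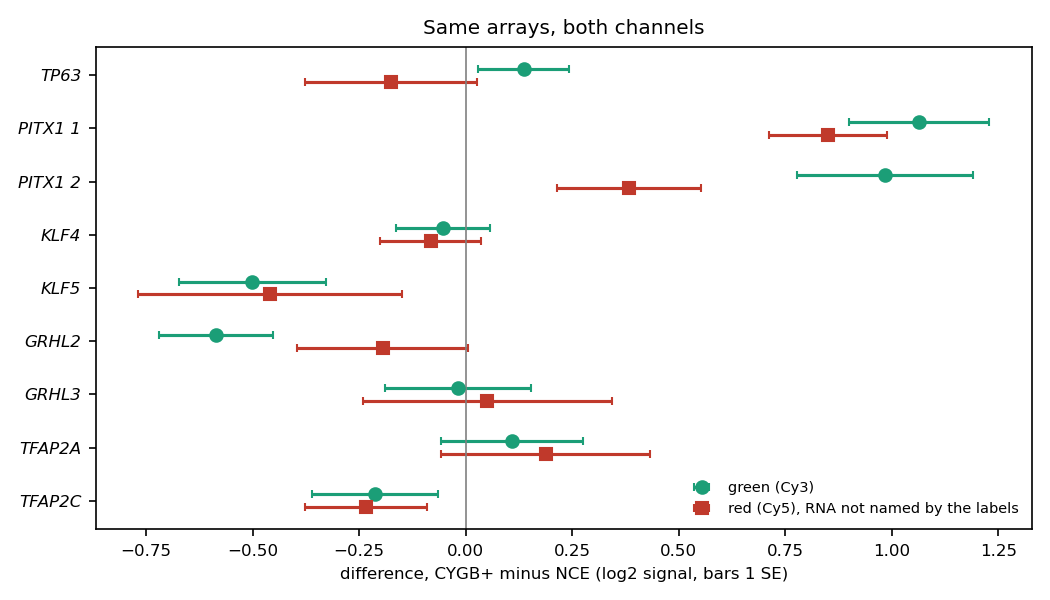
Difference in log2 signal, CYGB+ minus NCE by array label (x axis), for each tested probe of the factors in the green channel (circles) and the red channel (squares), with bars of 1 SE. PITX1 on its brighter probe lies at 1.06 in green and 0.85 in red, and GRHL2 at -0.59 and -0.20.

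Relatives, other regulators and target genes were compared next. Over these lists 8 genes were higher and 15 lower, and with slide as a term 3 and 7. The number tested is given with each list. Over all tested genes 6.76% were higher and 6.97% lower. With slide as a term 271 of 19429 fitted probes were higher and 441 lower. Shares of all genes for the counts without the array that stood apart, given below, were 11.6% and 11.9%. The 25 genes named from them and from the markers include 7 that passed whichever of the 6 replicates was left out (GRHL1, RUNX1, SOX7, TXNRD1, PROM2, COL1A2 and SPARC), and 18 that lost the call in at least 1 case.

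Relatives of the members share their DNA-binding families. Of 26 listed genes 17 were tested, with 1 higher and 2 lower. Leaving out the array that stood apart gave 2 higher and 3 lower, where 11.6% and 11.9% of all genes were. GRHL1, the remaining Grainyhead-like gene, was lower by 0.72 (SE 0.104, adjusted p = 0.00828), reading 7.99, 8.03 and 8.02 in NCE and 7.27, 7.18 and 7.43 in CYGB+. KLF2, a factor best known from endothelium, was lower by 0.76 (SE 0.119, adjusted p = 0.0104), and lower by 0.96 with slide as a term (adjusted p = 0.00391). SOX4 was higher by 0.52 (SE 0.123, adjusted p = 0.0363). With slide as a term GRHL1 (-0.56, adjusted p = 0.128) and SOX4 (0.39, adjusted p = 0.516) did not pass. PITX3, a homeobox gene of the PITX family, had a difference of 0.31 and did not pass.

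Other regulators of squamous epithelium had 6 of 20 tested genes lower and 0 higher, where 6.97% of all genes were lower and 6.76% higher, and the list's median difference was -0.09 against 0.01 over all genes. RUNX1, a factor of epithelial stem cell growth, was lower by 1.05 (SE 0.114, adjusted p = 0.00433). It read 9.92, 9.96 and 10.16 in NCE and 8.87, 8.94 and 9.09 in CYGB+, and was lower by 1.04 with slide as a term (adjusted p = 0.0045). As a mean over its probes RUNX1 was lower by 0.50 and still passed (adjusted p = 0.0123). SOX7 was lower by 0.83 (SE 0.0984, adjusted p = 0.00506). OVOL2, a repressor of mesenchymal genes, and FOXE1, a forkhead factor, were lower by 0.51 each (adjusted p = 0.0183 and 0.0378), and with slide as a term neither passed (adjusted p = 0.0539 and 0.439). EHF, an ETS factor of epithelia, was also among those called. Without the array that stood apart, 8 genes of this list were lower and 0 higher, where 11.9% of all genes were lower. Each of the 6 calls passed the 0.05 threshold across all 19791 probes, but the list was chosen with results of these data known and its share is given as a description.

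Target genes were listed by the factor they are known from. Of 19 tested p63 targets 2 were higher and 2 lower. IGFBP3, which binds insulin-like growth factors, was higher by 0.87 (SE 0.173, adjusted p = 0.0219), and CSTA, a protease inhibitor of the cornified layer, by 0.54 (SE 0.111, adjusted p = 0.0234). JAG1, a Notch ligand, was lower by 1.27 (SE 0.256, adjusted p = 0.0225), and ITGB4, an integrin of hemidesmosomes, by 0.66 (SE 0.152, adjusted p = 0.0321). The list's median difference was -0.01. Without the array that stood apart, 6 of the p63 targets were higher and 3 lower, where 11.6% and 11.9% of all genes were. With slide as a term none of the 4 named genes passed, with differences of 0.23 for IGFBP3 (adjusted p = 0.788), 0.40 for CSTA (adjusted p = 0.558), -1.19 for JAG1 (adjusted p = 0.505) and -0.28 for ITGB4 (adjusted p = 0.880).

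Of 9 tested genes in a list named for squamous partners of SOX2 and PITX1, 3 were higher and 0 lower. That is the name of the list only. These genes are not given as known targets, and a tie of any of them to either factor was not tested. TXNRD1, thioredoxin reductase, was higher by 1.05 (SE 0.124, adjusted p = 0.00506) and by 0.97 with slide as a term (adjusted p = 0.0166). RASA1, a Ras GTPase activating protein, was higher by 0.56 (SE 0.145, adjusted p = 0.0462), reading 8.55, 8.75 and 8.80 in NCE and 9.53, 9.06 and 9.19 in CYGB+. With the replicate number as a block it did not pass (adjusted p = 0.0538). TRIB1, a pseudokinase, was higher by 0.48 (SE 0.0981, adjusted p = 0.0241). With slide as a term RASA1 (0.68, adjusted p = 0.255) and TRIB1 (0.51, adjusted p = 0.0657) did not pass. The median of this list was -0.09, below 0, so its genes did not rise together. Without the array that stood apart 3 were higher and 1 lower, where 11.6% and 11.9% of all genes were. The lower gene was SLC2A1, a glucose transporter (-0.66, adjusted p = 0.0055).

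Differentiation genes listed with KLF4 and GRHL3 had 2 of 12 tested genes higher and 0 lower. The 2 were small proline-rich proteins of the cornified envelope. SPRR2A read 7.22, 7.57 and 8.34 in NCE and 9.50, 9.12 and 9.52 in CYGB+, a difference of 1.67 (SE 0.273, adjusted p = 0.0118). SPRR1B was higher by 0.93 (SE 0.145, adjusted p = 0.0104). Both also passed with slide as a term, at 2.09 and 1.07. SPRR genes are close copies of each other, so each signal is uncertain as to which copy it came from. IVL and TGM1, which also build the envelope, had differences of -0.12 and -0.29 and did not pass. SPRR1A, SPRR3 and KLK5 had differences of 0.44, 0.49 and 0.97 and did not pass either. The list's median difference was 0.03. Leaving out the array that stood apart gave 4 higher and 1 lower, where 11.6% and 11.9% of all genes were. The lower gene was then TGM1 (-0.32, adjusted p = 0.0355).

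Epithelial genes listed with GRHL2 and KLF5 had 3 of 16 lower and 0 higher. PROM2, a membrane protein of epithelial protrusions, was lower by 1.21 (SE 0.140, adjusted p = 0.00481), reading 10.98, 10.48 and 10.76 in NCE and 9.47, 9.61 and 9.51 in CYGB+. CDH3, P-cadherin, was lower by 1.07 (SE 0.162, adjusted p = 0.0096), and ESRP1, an epithelial splicing regulator, by 0.78 (SE 0.119, adjusted p = 0.0096). PROM2 and ESRP1 also passed with slide as a term, lower by 1.50 and 0.94, whereas CDH3 did not (-1.06, adjusted p = 0.220). CDH1, E-cadherin, had a difference of -0.25 and did not pass. Without the array that stood apart, 5 genes of this list were lower and 0 higher, where 11.9% of all genes were lower.

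Of 11 tested TFAP2 targets 2 were lower and 0 higher. Leaving out the array that stood apart gave 3 lower and 1 higher, where 11.9% and 11.6% of all genes were. EGFR, the epidermal growth factor receptor, read 10.10, 10.27 and 10.30 in NCE and 9.23, 9.41 and 9.68 in CYGB+ on its brightest probe, a difference of -0.78 (SE 0.137, adjusted p = 0.0147). As a mean over its probes the difference was -0.23 and did not pass, so its probes disagree. KRT6A, a keratin of activated epithelium, was lower by 0.46 (SE 0.119, adjusted p = 0.0456), and lies also in the squamous marker list. It was -0.05 with slide as a term (adjusted p = 0.972) and lost its call whichever of the 6 replicates was left out.

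**Figure D4:**
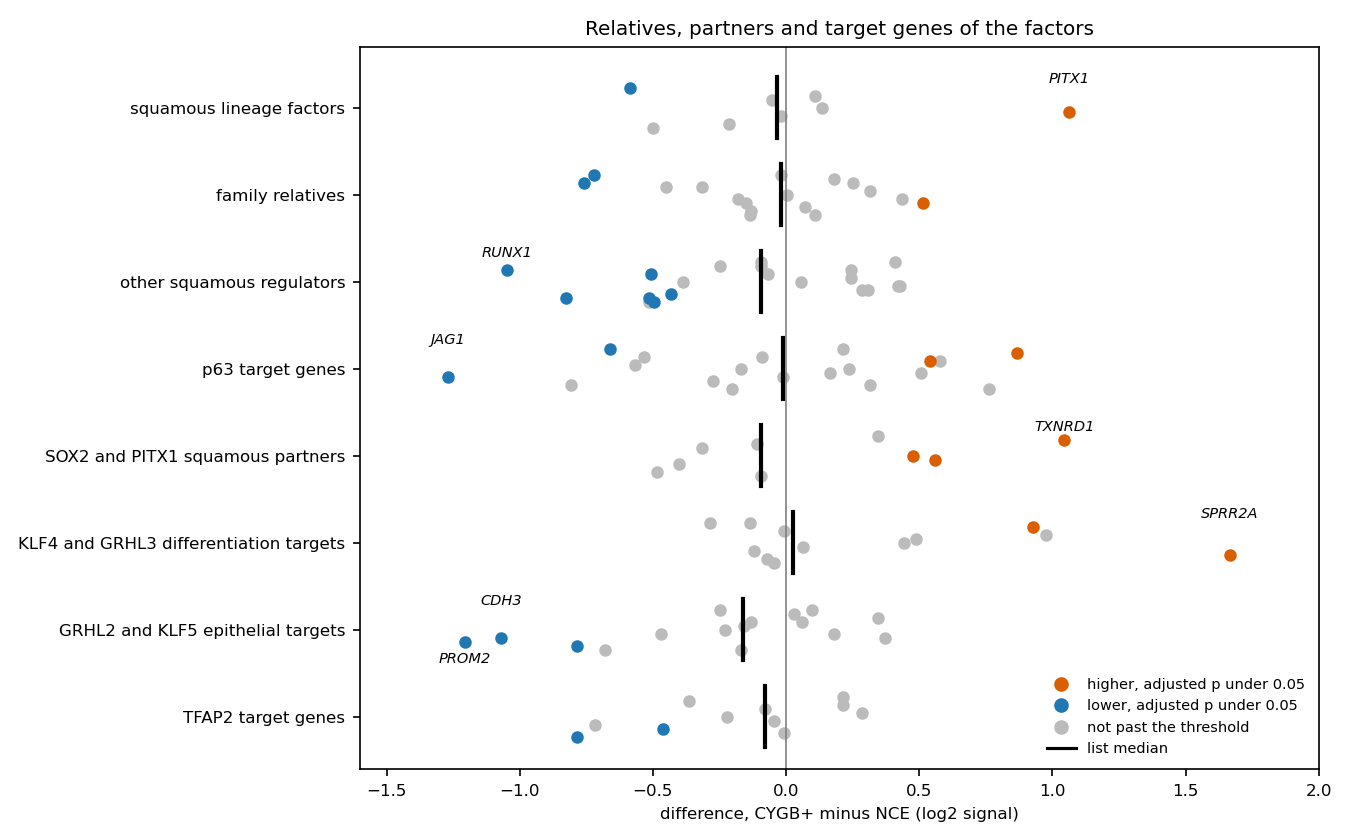
Difference in log2 signal, CYGB+ minus NCE (x axis), of every tested gene of the squamous factors and of 7 lists of relatives, other regulators and target genes (rows, offset vertically to part the points). Orange points are higher and blue points lower past the threshold, grey points did not pass and black bars are list medians, which all lie between -0.16 and 0.03; genes with a difference above 1 in size are named.

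The tested genes whose replicate profile was most like that of PITX1, each centred on its own mean over the 6 replicates, were SERTAD4-AS1, PLEKHO1, SCLY, CYP4F12 and NEURL1B. Their root mean square distances from PITX1 were 0.0259, 0.0650, 0.0882, 0.0926 and 0.104 log2, among 12131 genes compared. They share the arrays and slides with PITX1, and the likeness is a description.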

How the data were processed

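The deposited data were scanner files of 15 arrays, made by the authors with Agilent Feature Extraction 10.7.3.1 under a two-colour protocol, whose spot and background intensity values per the file headers were not normalised between arrays. The labels give Cy3 for every sample, while the study's methods put control RNA in Cy5 and CYGB+ RNA in Cy3; the green channel was used by label. The authors' own table holds natural log values of the green signal, centred per probe on the CYGB+ median (97.3% of its probes lie within 0.01 of 0), and served as an alternative; its group differences correlated at 0.994 with those of the scanner values across bright probes.

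Median spot signal was background corrected (normexp, offset 50, with the median background), quantile normalised and taken to log2. The design had named the mean spot signal, which the deposited data do not hold. The log2 values were computed here from the deposited signals. Spots with outlier flags (0.916%) were dropped, and spots, then arrays of a replicate, were averaged. Probes well above background on all arrays of at least 1 group were tested (19791) with limma 3.58.1 in R 4.3.3, 3 against 3 replicates, at an adjusted p of 0.05, and the script was tested on simulated data. The brightest probe stood for a gene. Of 27310 RefSeq-named probes 25422 matched 1 gene. Named genes were all members, up to 4 called genes of each list with the largest differences, and the 5 profiles nearest PITX1, and a few further list genes were named after their values were seen. The members and lists were chosen with earlier results of these data known. The replicates are RNA extracted on separate occasions from the same lines, so p-values measure the spread between these samples only. The number of arrays limits the precision.

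The deviations of same-numbered replicates had correlations of 0.22, 0.23 and 0.31 across probes. Each met the rule of above 0.1 for taking the replicate number as a pairing. The main fit did not pair the replicates, and the replicate block was run as an alternative. Other-numbered pairs ran from -0.52 to 0.31, and some of them also met that rule, so whether the numbers pair the samples is uncertain.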

Additional observations from a re-analysis of the deposited data

Results flagged for a closer look

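Among 20 sets of arrays of one group examined for the members' tested probes and CYGB, 3 had an end value far from the rest. The cutoff flags about 1 in 20 sets of independent arrays. These sets include repeats of the same replicate and share arrays, so that rate does not apply to them. The brighter PITX1 probe read 11.82 on the NCE array that lay on the second slide, above the other 8 NCE arrays. TFAP2A read 8.54 and TFAP2C read 7.96 on the CYGB+ array that stood apart, above the other 5 CYGB+ arrays. PITX1 also differed by 0.85 between arrays labelled CYGB+ and NCE in the red channel, whose RNA the labels do not name. The study's methods put control RNA in red, so this difference may not compare CYGB+ with NCE RNA.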

How the results depend on the processing

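The PITX1 difference on its brighter probe ran from 0.39 to 1.21 over 20 alternatives and lost its call in 5, namely with slide as a term, on the second slide only, without NCE replicate 2 or 3 and in the methods' t-test (adjusted p = 0.0707). GRHL2 lost its call in 12 of 20. Leaving out 1 replicate gave PITX1 from 0.96 to 1.21 and GRHL2 from -0.67 to -0.48, called in 4 and 1 of 6. With the replicate block KLF5 passed, members called lower were 2 and list genes called higher 15, while RASA1 lost its call, and no other named gene's call changed. Members called lower were 0 under both processed signal settings, with no filter on dim probes, on the authors' table, with slide as a term, on the second slide only and in the t-test, and 0 to 1 without a replicate. Members called higher were 0 with slide as a term, on the second slide only and in the t-test, and 0 to 1 without a replicate.

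Among list genes, 8 were higher and 15 lower. Higher calls numbered 5 with no filter, 5 on the authors' table, 3 with slide as a term, 0 on the second slide only, 2 in the t-test, 15 without the array that stood apart, 18 without 3 such arrays, and 1 to 8 without a replicate. Lower calls numbered 7 with slide as a term, 0 on the second slide only, 6 in the t-test, 24 without that array, 25 without 3 arrays, and 5 to 17 without a replicate. Over all probes, higher and lower calls numbered 1205 and 1169. Higher calls were 764 on the authors' table, 271 with slide as a term, 3 on the second slide only, 444 in the t-test, 2077 without that array, 2593 without 3 arrays, and 246 to 1280 without a replicate. Lower calls were 767 under percentile scaling, 680 on the authors' table, 441 with slide as a term, 2 on the second slide only, 357 in the t-test, 2008 without that array, 2410 without 3 arrays, and 244 to 1149 without a replicate. The lowest counts came without NCE replicate 2 or 3, and fewer samples were then tested.

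Signs turned for values that had not passed and for KRT19, which read 0.00724 on the second slide. KLF4 was 0.0549 with processed signal and quantiles, 0.00377 on the authors' table, 0.0342 with slide as a term, 0.0711 on the second slide and -0.108 to 0.0163 without a replicate. GRHL3 was 0.0521 with processed signal and quantiles, 0.0313 on the second slide and -0.129 to 0.147 without a replicate. TP63 was -0.0389 with slide as a term and -0.00604 on the second slide. TFAP2A was -0.0195 with slide as a term, -0.0620 on the second slide, -0.0499 without the array that stood apart, -0.0622 without 3 arrays and -0.0699 to 0.228 without a replicate. CYGB was 0.0912 with processed signal and percentile scaling, 0.0467 on the authors' table and -0.311 to 0.222 without a replicate. The cause was not tested. The 2 settings that leave out arrays were chosen after seeing the data.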
